A study of Homo sapiens with 3 samples.

Results

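Transcripts of 10 genes of the interleukin-1 (IL-1) system were described in Caki-1 cells, an established human line of clear cell renal cell carcinoma, with and without knockdown of *RBCK1*, which encodes the ubiquitin ligase subunit HOIL-1. The genes encode ligands (*IL1A*, *IL1B*, *IL18*, *IL33*), a receptor antagonist (*IL1RN*), receptor chains (*IL1R1*, *IL1RAP*), and the adaptor and kinases below the receptor (*MYD88*, *IRAK1*, *IRAK4*). They were chosen by name, with their levels in these same libraries already known, from a table of 44591 genes. All 10 were in the table, and 8 had a mean of at least 1 RPKM (reads per kilobase of gene length scaled to library size) over the 3 libraries, as did 12403 genes in all. *IL1RN* and *IL33* did not. Every value below is therefore a description and carries no test.

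The 3 libraries were a Caki-1 culture given a control siRNA (si-Control) and 2 cultures given different siRNAs against *RBCK1*, labelled si-HOIL-1#1 and si-HOIL-1#2 and called si-RBCK1 #1 and si-RBCK1 #2 here. Per the study's methods, RNA was taken 48 h after transfection, and its general transfection paragraph gives 10 nmol/L of siRNA. All 3 libraries came from 1 cell line, each condition had 1 library, and the 2 siRNAs are different reagents rather than replicates of each other. Both comparisons used the same si-Control library, and the spread between cultures is unknown.

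IL-1α and IL-1β, encoded by *IL1A* and *IL1B*, bind the same receptor chain, IL1R1, which then recruits the accessory chain IL1RAP. The paired intracellular domains gather MYD88, IRAK4 and IRAK1, and ubiquitin chains built on this complex carry the signal to the transcription factors NF-κB and AP-1. HOIL-1 is a subunit of the linear ubiquitin chain assembly complex, LUBAC, which adds linear chains in this pathway. IL-1α is made by many epithelial cells and is active as its precursor, whereas IL-1β and IL-18 are cut by caspase-1 before release. IL-1 is known in epithelial tumor lines as an inducer of chemokines and of IL-6.

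The siRNAs are shown first, since each library differs from si-Control by its reagent. The sense strands are written 5′ to 3′, and the capitals mark the bases that pair with bases 2 to 8 of the guide strand, the seed.
si-RBCK1 #1: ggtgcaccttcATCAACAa
si-RBCK1 #2: ggattaccagcGATTTCTa

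The full 19-base sense strand of each siRNA occurred in *RBCK1* and in none of the 10 IL-1 genes, in the longest coding transcript of each gene in GENCODE 29. Seed matches alone were common, being present in 22.3% of 19669 genes for si-RBCK1 #1 and in 25.9% for si-RBCK1 #2. *IL1A* had 1 match for si-RBCK1 #1 at base 2055 of its transcript, after the coding part, and none for si-RBCK1 #2. *IL1RAP* had 1 match for si-RBCK1 #2 at base 2371, after the coding part, and none for si-RBCK1 #1. These sites are shown because both genes were lower with both siRNAs, with the seed match in capitals.
IL1A, si-RBCK1 #1: tacattattATCAACAatagtgatt
IL1RAP, si-RBCK1 #2: ggactatcaGATTTCTgtccccttt

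*IL1R1* had 1 match for each siRNA in its coding part. *IRAK4* had 2 for si-RBCK1 #1, at base 92 in the coding part and at base 1627 after it. *IRAK4* was also lower with both siRNAs, by less, and its sites are not shown. No match to either siRNA was found in the transcripts of *IL1B*, *IL1RN*, *IL18*, *IL33*, *MYD88* and *IRAK1*. A match is a run of letters and not a shown site, and the part of seed pairing in any level was not tested.

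*RBCK1* stood at 33.3 RPKM in si-Control, 9.97 RPKM under si-RBCK1 #1 and 12.3 RPKM under si-RBCK1 #2, so that the targeted transcript was lower in both libraries that carry its label. On the log2(RPKM + 1) scale the differences from si-Control were -1.65 and -1.37. The deposited values were scaled to totals of 36344428 to 40442939 reads per library, and 12263 to 12473 genes per library reached 1 RPKM. The median log2 ratio of all 12403 genes was 0.019 under si-RBCK1 #1 and 0.035 under si-RBCK1 #2. Of the renal epithelial markers 5 of 10 passed the filter of 1 RPKM, while *CA9* and *PAX2* stayed at or below 0.0642 RPKM. *PAX8* was at 124, 82.5 and 107 RPKM in si-Control, si-RBCK1 #1 and si-RBCK1 #2. *KRT8*, at 65.6, 172 and 238 RPKM, and *VIM*, at 664, 1512 and 1392 RPKM, were at least 2-fold higher with both siRNAs, as were 1.46% of all genes. *KRT18* was also higher with both, at 95.3, 142 and 172 RPKM. *MET*, at 144, 112 and 109 RPKM, was lower with both, as *PAX8* was. The summed markers of this list were 1094, 2023 and 2019.4 RPKM. *VIM*, which is not specific to epithelium, was the largest part of each sum, so the sums do not measure epithelial markers alone. Of the markers of leukocytes and of fibroblasts and endothelium, 1 of 7 passed in each list. These were *CD68*, at 41.8 to 52.3 RPKM, and *COL1A1*, at 3.21 to 4.68 RPKM. *PTPRC*, the pan-leukocyte marker, was at or below 0.0223 RPKM and *CD3E* had no read. The summed leukocyte markers were 41.9, 51.4 and 52.4 RPKM in si-Control, si-RBCK1 #1 and si-RBCK1 #2. The summed fibroblast and endothelial markers were 5.58, 3.95 and 5.14 RPKM in the same order, and the part of these differences in the values below was not tested.

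Among the ligands, *IL1A* had the lowest ratios to si-Control after *RBCK1* depletion. The gene lies on chromosome 2 (hg19, chr2:113531492-113542975, minus strand). Its level was 53.9 RPKM in si-Control, 18.1 RPKM under si-RBCK1 #1 and 11.9 RPKM under si-RBCK1 #2, from 5841, 2147 and 1265 reads. Both knockdown libraries were thus far below si-Control, and si-RBCK1 #2 was the lower of them. Relative to si-Control, 33.6% of the *IL1A* level was left under si-RBCK1 #1 and 22.0% under si-RBCK1 #2.

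On the log2(RPKM + 1) scale the *IL1A* difference was -1.52 under si-RBCK1 #1 and -2.09 under si-RBCK1 #2. The log2 ratio of the reads, scaled to library totals, was -1.58 with a 95% counting interval of -1.65 to -1.50 for si-RBCK1 #1. For si-RBCK1 #2 it was -2.18, with an interval of -2.27 to -2.10. All intervals given here are exact Clopper-Pearson intervals, and they cover counting error only, not the spread between cultures. Ordered by log2 ratio from the lowest, *IL1A* was number 75 of the 12403 genes under si-RBCK1 #1 and number 12 under si-RBCK1 #2. Its level was above that of 90.7% of these genes in si-Control, of 70.6% under si-RBCK1 #1 and of 59.0% under si-RBCK1 #2. In bulk RNA of this kind, fewer cells that express *IL1A* and less *IL1A* RNA per cell cannot be told apart.

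**Figure D1:**
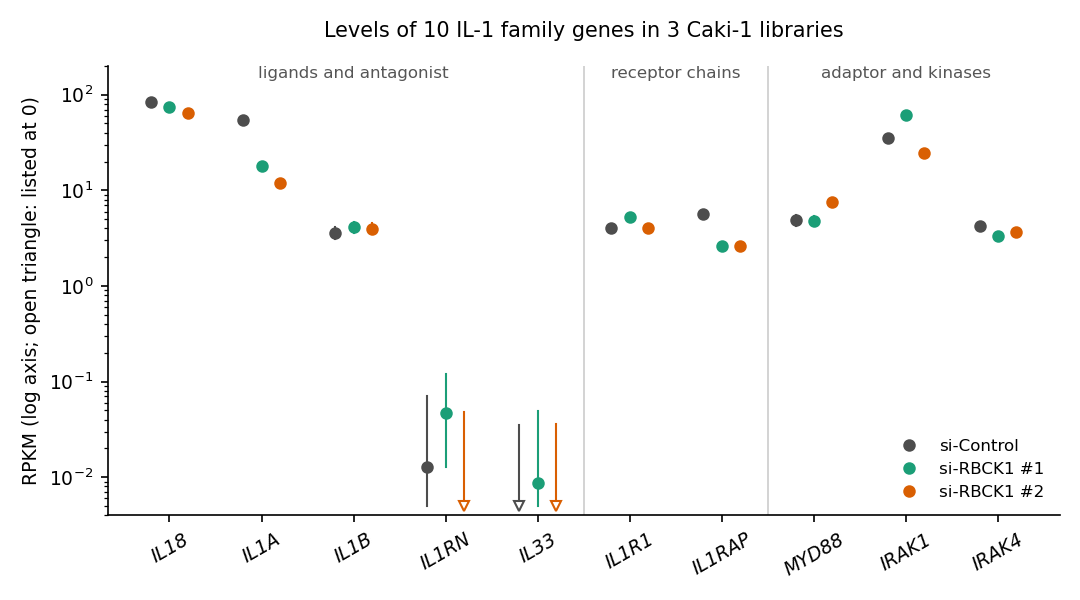
RPKM of the 10 IL-1 genes in the 3 libraries, with 1 point per library and bars for the 95% Poisson counting interval. *IL1A* goes from 53.9 RPKM in si-Control to 18.1 and 11.9 RPKM, whereas *IL1B* stays between 3.56 and 4.09 RPKM.

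*IL1B*, the neighbor of *IL1A* (hg19, chr2:113587337-113594356, minus strand), did not follow it. Its level was 3.56 RPKM in si-Control, 4.09 RPKM under si-RBCK1 #1 and 3.99 RPKM under si-RBCK1 #2, from 197, 248 and 217 reads. The 3 values lay within 1 RPKM of each other, and both knockdown libraries were slightly above si-Control. The log2 ratio of reads was 0.20 (interval -0.07 to 0.48) under si-RBCK1 #1 and 0.16 (interval -0.12 to 0.45) under si-RBCK1 #2, so that a difference was not detectable at this depth. The *IL1A* level was 15.1 times the *IL1B* level in si-Control, 4.42 times under si-RBCK1 #1 and 2.98 times under si-RBCK1 #2.

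Transcripts of *IL18*, whose cytokine signals through a separate receptor pair and MYD88, were the most abundant of the 10 per length. The levels were 84.5 RPKM in si-Control, 73.8 RPKM under si-RBCK1 #1 and 64.9 RPKM under si-RBCK1 #2. Both knockdown libraries were below si-Control, by less than for *IL1A*. The log2 ratio of reads was -0.20 (interval -0.26 to -0.13) and -0.38 (interval -0.45 to -0.31). The *IL18* level was 1.57 times that of *IL1A* in si-Control, 4.07 times under si-RBCK1 #1 and 5.47 times under si-RBCK1 #2, so the order of these ligands by level did not change.

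The receptor antagonist and the nuclear alarmin were near the limit of detection. *IL1RN*, which encodes the antagonist that occupies IL1R1 without signaling, had 1 read in si-Control, 4 reads under si-RBCK1 #1 and 0 reads under si-RBCK1 #2. These correspond to 0.0128 RPKM, 0.0468 RPKM and 0 RPKM, and 3 reads would have been 0.0351 to 0.0391 RPKM. *IL33* had 0, 1 and 0 reads in the same order, and a count of 0 allows up to 0.0288 RPKM in si-Control and 0.0293 RPKM under si-RBCK1 #2. No difference was readable for either gene at this depth, and the deposited gene-level values do not separate secreted from intracellular forms of *IL1RN*.

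The promoters of *IL1A* and *IL1B* are shown because these neighboring genes, which encode ligands of the same receptor, differed in their ratios. Each is the 250 bases before the most upstream RefSeq start (GRCh38.p14, chr2:112784494-112784743 and chr2:112836780-112837029, both on the minus strand), written 5′ to 3′ on the gene's strand. Capitals mark a match to the AP-1 motif TGANTCA, searched on both strands.
IL1A: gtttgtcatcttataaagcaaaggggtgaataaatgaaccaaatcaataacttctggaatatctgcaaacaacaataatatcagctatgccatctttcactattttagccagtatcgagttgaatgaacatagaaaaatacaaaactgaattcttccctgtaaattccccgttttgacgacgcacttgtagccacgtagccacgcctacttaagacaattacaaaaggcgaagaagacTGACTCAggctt
IL1B: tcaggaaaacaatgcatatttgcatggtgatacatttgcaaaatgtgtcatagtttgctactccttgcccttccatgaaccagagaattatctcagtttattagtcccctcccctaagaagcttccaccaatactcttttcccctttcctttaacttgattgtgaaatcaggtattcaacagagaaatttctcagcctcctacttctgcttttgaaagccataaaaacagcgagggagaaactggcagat

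The *IL1A* window held 1 AP-1 match, 12 bases before the start, and the *IL1B* window held none. In windows of 300 bases, which reach 50 bases past the start, an AP-1 match was present in 7.71% of 35116 RefSeq windows, a match to the κB motif in 5.91% and a match to the p53 half-site motif in 6.63%. For the IL-1 genes, 16 windows of 9 genes were searched. AP-1 matches were found in both *IL1A* windows, in 1 of 3 *IL1RN* windows and in that of *IRAK1*. The *IL1A* windows overlap and hold the same 2 matches, so they are 1 stretch counted for 2 starts. A κB match was found in none of the 16, and a p53 half-site in 1 of the 4 windows of *IL1R1*. A match is a description of letters, and no match says only that they are not in the window searched.

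Around the ligand cluster, the low *IL1A* ratios were not shared by the genes beside it. *CKAP2L*, the nearest gene passing the filter on the left, encodes a spindle protein and had log2(RPKM + 1) differences of -0.50 and -0.26. *PSD4*, the nearest on the right beyond *IL1RN*, had differences of 0.39 and 0.28. *IL37*, *IL36G*, *IL36A*, *IL36B*, *IL36RN* and *IL1F10*, the ligand genes between *IL1B* and *IL1RN*, were all below the filter. The highest of their values was 0.230 RPKM, for *IL37* under si-RBCK1 #2, and *IL36RN* had no read in any library.

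**Figure D2:**
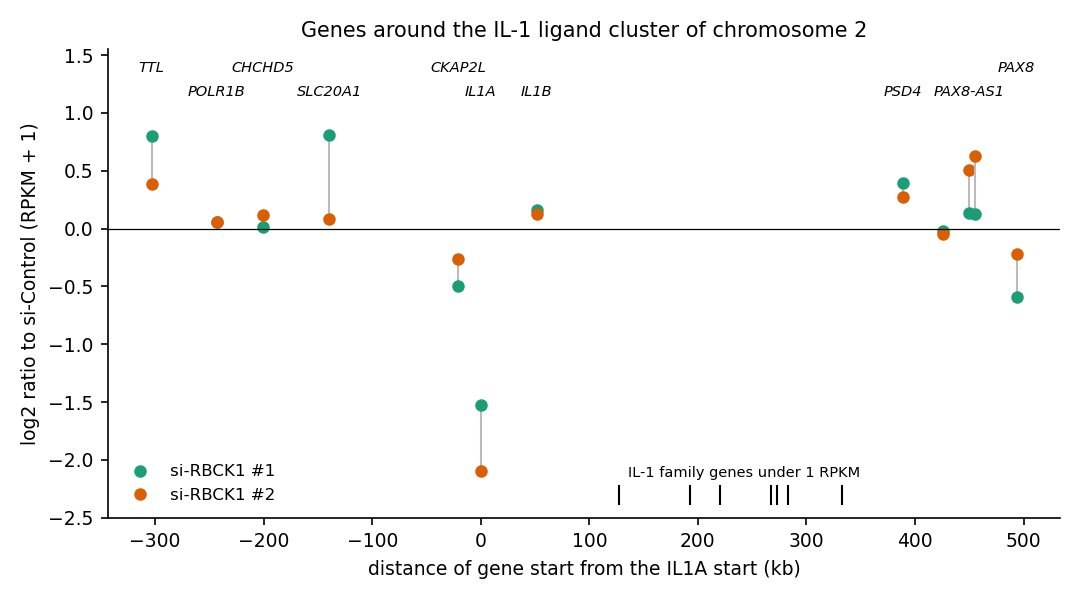
Log2 ratio of RPKM + 1 to si-Control for the genes passing the filter around the IL-1 ligand cluster of chromosome 2, against the distance of each gene's start from that of *IL1A* in kb, with 1 point per siRNA joined by a line (2 unnamed genes near *PAX8* are unlabelled), and ticks for IL-1 family genes below the filter. *IL1A* lies at -1.52 and -2.09, and *IL1B*, its neighbor, at 0.16 and 0.13.

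At the receptor, the 2 chains of the IL-1 complex differed. *IL1RAP*, the accessory chain shared with the receptors of IL-33 and IL-36 (hg19, chr3:190231840-190374986, plus strand), stood at 5.67 RPKM in si-Control and at 2.61 RPKM with each siRNA, from 1474, 744 and 667 reads. The knockdown libraries had the same level to 3 digits, and both were below si-Control, at 46.1% and 46.0% of its level. Scaled reads gave a log2 ratio of -1.12 with both, with intervals of -1.25 to -0.99 and -1.26 to -0.99. On the log2(RPKM + 1) scale, which draws low levels together, the differences were -0.88 and -0.89. Whether *IL1RAP* counts as 2-fold lower therefore rests on the scale. A short gene on the same strand within *IL1RAP*, *RN7SKP296*, was at 0.220, 0.804 and 0.895 RPKM in si-Control, si-RBCK1 #1 and si-RBCK1 #2, and gene-level values do not separate the soluble from the membrane form of IL1RAP.

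*IL1R1*, the chain that binds IL-1α and IL-1β (hg19, chr2:102686836-102796334, plus strand), was at 4.04 RPKM in si-Control, 5.22 RPKM under si-RBCK1 #1 and 4.02 RPKM under si-RBCK1 #2. The si-RBCK1 #1 library stood above both others, which were nearly equal. As reads, the log2 ratio was 0.37 (interval 0.24 to 0.50) under si-RBCK1 #1 and -0.01 (interval -0.15 to 0.13) under si-RBCK1 #2. In si-Control *IL1R1* was below *IL1RAP*, at 0.713 times its level, and in the knockdown libraries it was above, at 2.00 and 1.54 times. *MAP4K4*, to the left of *IL1R1*, had log2(RPKM + 1) differences of 0.21 and 0.24, and *IL18R1*, to its right, of -0.26 and -0.30.

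The other receptors and binding proteins of the family were mostly silent. Of 9 genes, 3 passed the filter. None of these 3 was 2-fold changed with either siRNA, a number too small to read against the 6.18% and 4.76% of all genes that were. *SIGIRR*, a negative regulator of the family, was at 3.09, 3.47 and 3.92 RPKM in si-Control, si-RBCK1 #1 and si-RBCK1 #2. *IL18BP*, the soluble trap of IL-18, was at 1.58, 1.98 and 1.64 RPKM, and *IL18R1*, the ligand-binding chain for IL-18, at 1.47, 1.07 and 1.01 RPKM. Named for their roles, the decoy receptor gene *IL1R2* stayed at or below 0.129 RPKM and the IL-33 receptor gene *IL1RL1* at or below 0.0297 RPKM. *IL18RAP*, the second chain of the IL-18 receptor, had 0, 0 and 1 reads.

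The adaptor and the kinases did not move together. *IRAK1*, the kinase that is phosphorylated by IRAK4 and passes the signal to TRAF6 (hg19, chrX:153275957-153285342, minus strand), was at 35.3 RPKM in si-Control, 61.8 RPKM under si-RBCK1 #1 and 24.6 RPKM under si-RBCK1 #2. The si-RBCK1 #1 library was thus above si-Control and the si-RBCK1 #2 library below it. In scaled reads the log2 ratio was 0.81 (interval 0.76 to 0.86) under si-RBCK1 #1 and -0.52 (interval -0.58 to -0.45) under si-RBCK1 #2. Between the siRNAs, the log2 ratio of reads was 1.33, with an interval of 1.27 to 1.39. On the log2(RPKM + 1) scale 25 of 12403 genes (0.202%), *IRAK1* among them, lay at least 0.5 from si-Control in opposite directions with the 2 siRNAs, a limit chosen after the values were seen.

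*MYD88*, the adaptor of the IL-1 receptor and of most Toll-like receptors, was at 4.86 RPKM in si-Control, 4.82 RPKM under si-RBCK1 #1 and 7.47 RPKM under si-RBCK1 #2. Here si-RBCK1 #2 stood above the other two libraries, which were nearly equal. The log2 ratio of reads was -0.01 (interval -0.26 to 0.24) under si-RBCK1 #1 and 0.62 (interval 0.39 to 0.85) under si-RBCK1 #2. The interval rests on the smallest gene length that gave whole reads, 1437 nt, and the longest coding transcript has 2850 nt, so the true reads may be a multiple of these.

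*IRAK4*, the kinase that MYD88 recruits first, varied least of these, at 4.19 RPKM in si-Control, 3.34 RPKM under si-RBCK1 #1 and 3.67 RPKM under si-RBCK1 #2. Both knockdown libraries were below si-Control, with log2 ratios of reads of -0.33 (interval -0.49 to -0.17) and -0.19 (interval -0.35 to -0.03). The *IRAK1* level was 8.42 times that of *IRAK4* in si-Control, 18.5 times under si-RBCK1 #1 and 6.72 times under si-RBCK1 #2.

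**Figure D3:**
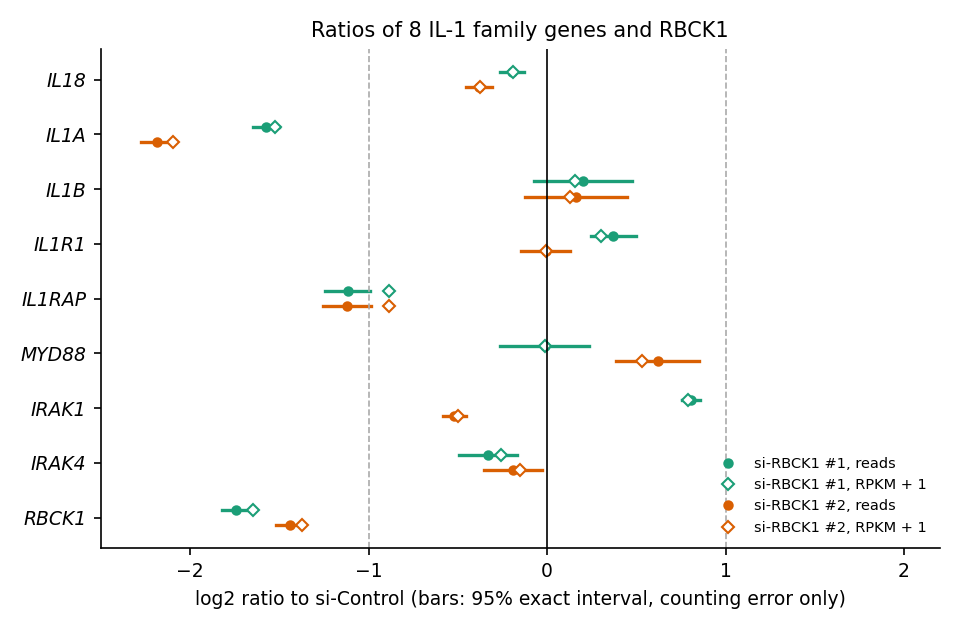
Log2 ratio to si-Control for the 8 IL-1 genes passing the filter, with filled points and bars for scaled reads and their 95% counting intervals, and open points for RPKM + 1. *IL1A* and *IL1RAP* lie below 0 with both siRNAs, and *IRAK1* lies at 0.81 under si-RBCK1 #1 and at -0.52 under si-RBCK1 #2.

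Read across the 8 genes that passed the filter, 1 gene, *IL1A*, was at least 2-fold changed on the log2(RPKM + 1) scale under si-RBCK1 #1, and the same gene under si-RBCK1 #2, in both cases lower. Of all 12403 genes, 6.18% were past this limit under si-RBCK1 #1, 4.76% under si-RBCK1 #2 and 2.87% in the same direction with both. At least 2-fold lower with both were 1.41% of all genes. No IL-1 gene was at least 2-fold higher, beside 2.91% of all genes under si-RBCK1 #1, 2.50% under si-RBCK1 #2 and 1.46% with both. The genes were chosen with these ratios known, so nothing is read from the share. With a pseudocount of 0.1 RPKM 2 of the 8, *IL1A* and *IL1RAP*, were past the limit with each siRNA, both lower. In that setting 10.9% of all genes were past it under si-RBCK1 #1, 8.75% under si-RBCK1 #2 and 5.43% the same way with both, and 2.64% were lower with both. By sign alone, *IL1A*, *IL1RAP*, *IL18* and *IRAK4* were below si-Control in both knockdown libraries, *IL1B* was above in both, and *IL1R1*, *MYD88* and *IRAK1* differed in sign between them.

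Per length, the order of the levels in si-Control was *IL18*, *IL1A* and *IRAK1*, whose Poisson intervals did not overlap, then *IL1RAP*, *MYD88*, *IRAK4*, *IL1R1* and *IL1B*. Among these 5 genes each neighboring pair had overlapping intervals, so the order within each such pair is not resolved by counting error, although *IL1RAP* lay above *IRAK4*, *IL1R1* and *IL1B* with no overlap. With both siRNAs *IRAK1* moved above *IL1A*, and *IL1RAP* was the lowest of the genes that passed, with an interval that did not overlap that of the gene next above, *IRAK4*. With si-RBCK1 #2, *MYD88* was the highest of the low group, with no overlap with *IL1R1*.

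Directly between the siRNAs, the genes fell into those that differed beyond counting error and those that did not. For *IL1A* the log2 ratio of reads, si-RBCK1 #1 over si-RBCK1 #2, was 0.61 (interval 0.51 to 0.71), and for *IL18* 0.18 (interval 0.11 to 0.26). For *IL1R1* it was 0.38 (interval 0.25 to 0.50) and for *MYD88* -0.63 (interval -0.86 to -0.41). *IL1A*, *IL18* and *IL1R1* were thus higher under si-RBCK1 #1 than under si-RBCK1 #2, and *MYD88* was lower. For *IL1RAP* it was 0.00 (interval -0.15 to 0.16) and for *IL1B* 0.04 (interval -0.23 to 0.31), and for *IRAK4* -0.14 (interval -0.31 to 0.03). No difference was detectable for those genes, with bounds that still leave room for a modest difference. On the log2(RPKM + 1) scale, 1.38% of all genes differed at least 2-fold between the siRNAs, and *IRAK1*, at 1.29, was the member that did.

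**Figure D4:**
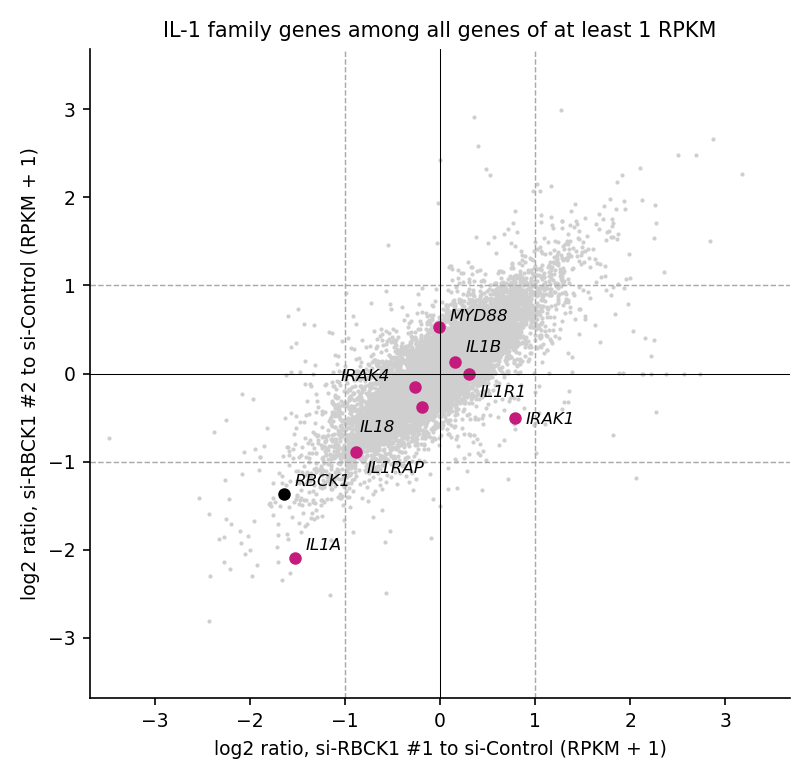
Log2 ratio of RPKM + 1 to si-Control under si-RBCK1 #2 against that under si-RBCK1 #1, with 1 grey point for each of the 12403 genes and labelled points for the IL-1 genes. *IL1A* lies low with both siRNAs, and *IRAK1* lies on opposite sides of 0.

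The genes with the pattern most like that of *IL1A* and *IL1RAP* were found by the distance between points in the plane of both log2(RPKM + 1) ratios, among the protein-coding genes that passed the filter. With only 2 ratios, both against the same si-Control, this likeness is a coarse one. For *IL1A* they were *C15orf48*, *TCEA1*, a transcription elongation factor, and *CXCL8*, which encodes the neutrophil chemoattractant interleukin-8, at distances of 0.18, 0.23 and 0.28. For *IL1RAP* they were *OCLN*, which encodes the tight junction protein occludin, *FERMT2*, which encodes an integrin activator, and *SLC1A4*, an amino acid transporter gene, at distances of 0.0056, 0.0059 and 0.023. These small distances rest on the pseudocount, which draws low levels together. By scaled reads *IL1RAP* stood at 46.1% and 46.0% of si-Control under si-RBCK1 #1 and si-RBCK1 #2. In the same order *OCLN* stood at 32.6% and 32.5%, *FERMT2* at 52.9% and 52.9%, and *SLC1A4* at 48.3% and 48.9%.

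Downstream transcripts were read from a list of 26 genes known to be raised by IL-1, of which 23 passed the filter. With si-RBCK1 #1, 17 were lower and 6 higher than si-Control, and the counts were also 17 and 6 under si-RBCK1 #2. The 6 higher genes are 26.1% of those that passed, beside 51.5% of all 12403 genes under si-RBCK1 #1 and 53.5% under si-RBCK1 #2. At least 2-fold lower were 4 of the 23 under si-RBCK1 #1, against 3.27% of all genes, and 10 under si-RBCK1 #2, against 2.27%. The list's median log2 ratio was -0.30 under si-RBCK1 #1 and -0.91 under si-RBCK1 #2. Those past the limit with both were *CXCL8*, *IL6*, *SOD2* and *LCN2*. The study already reported *SOD2* as lower in its RNA sequencing, and names it there as a gene that p53 represses. All of these genes were listed with earlier results of these data known, so none is independent evidence.

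*CXCL8* was at 3383 RPKM in si-Control, 1070 RPKM under si-RBCK1 #1 and 667 RPKM under si-RBCK1 #2. *IL6*, the interleukin of the acute phase, was at 805, 204 and 163 RPKM, values that did not come out as whole reads at any length searched. *SOD2*, the mitochondrial superoxide dismutase, was at 418, 202 and 156 RPKM. All 3 were lowest under si-RBCK1 #2, as *IL1A* was. *LCN2*, an iron-binding acute phase protein, was at 143, 23.8 and 52.9 RPKM and was lowest under si-RBCK1 #1.

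The 4 further genes of the list with the highest mean levels were not 2-fold changed under si-RBCK1 #1, and *CXCL1* was under si-RBCK1 #2. *CXCL1*, a chemokine for neutrophils, was at 4187, 3395 and 1939 RPKM, and *CXCL5*, of the same family, at 988, 881 and 547 RPKM. *CXCL6* was at 1389, 1274 and 1264 RPKM, and *SAA1*, the acute phase serum amyloid, at 1059, 948 and 1097 RPKM. Among the others that were 2-fold lower only under si-RBCK1 #2, named after their values were seen, *CXCL2* was at 780, 509 and 266 RPKM and *CSF2*, a granulocyte and macrophage growth factor, at 403, 213 and 115 RPKM. Under si-RBCK1 #2 their log2(RPKM + 1) differences, -1.55 and -1.80, were lower than those of *SOD2* and *LCN2*, which were both -1.42. Among the genes of the list that passed, the single one at least 2-fold higher, only under si-RBCK1 #1, was *CSF3*, named after its values were seen. *CSF3*, the granulocyte growth factor, was at 1.99, 13.3 and 2.89 RPKM. The genes of the list below the filter were *MMP3*, *MMP1* and *CCL2*. *MMP3* was at 0.199, 1.54 and 0.245 RPKM, a log2(RPKM + 1) difference of 1.09 under si-RBCK1 #1. *MMP1* was at 0.527, 1.61 and 0.321 RPKM, and *CCL2* at 0.145, 0 and 0.110 RPKM.

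**Figure D5:**
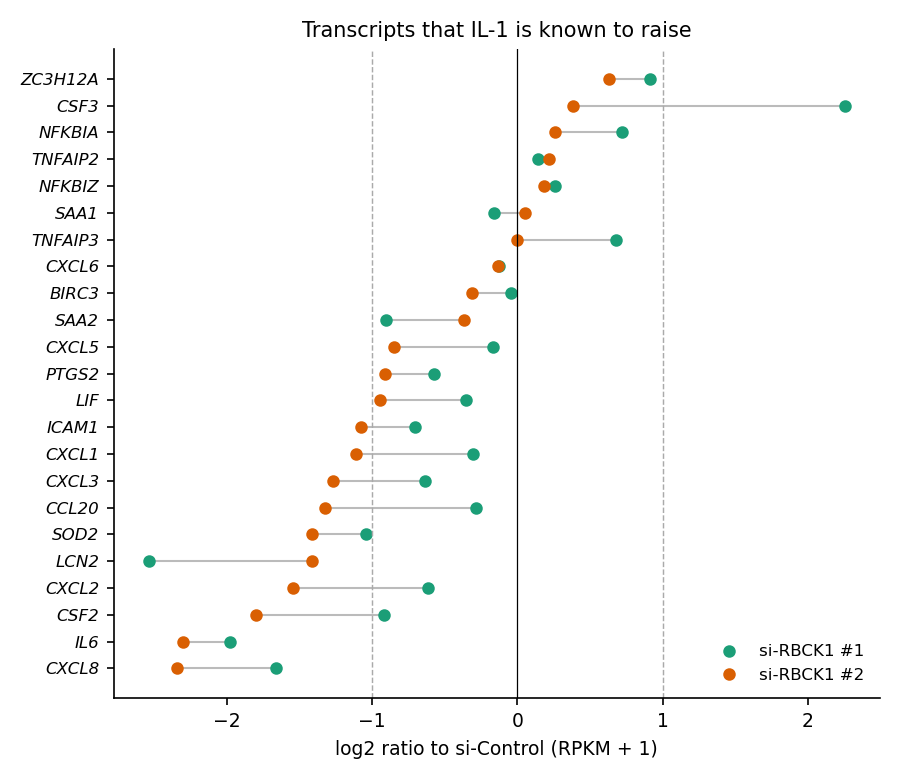
Log2 ratio of RPKM + 1 to si-Control for the 23 genes of the list raised by IL-1 that passed the filter, with 1 point per siRNA. In each library 17 genes lie below 0 and 6 above, and the medians are -0.30 and -0.91.

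Of 16 signal transducers below MYD88 and the IRAKs, 15 passed the filter, with a median of the log2 ratios of -0.04 under si-RBCK1 #1 and 0.04 under si-RBCK1 #2, beside 0.019 and 0.035 for all genes, and both medians changed sign under other settings. With si-RBCK1 #1, 7 were higher and 8 lower, and under si-RBCK1 #2, 8 and 7. The higher ones were 46.7% and 53.3%, beside 51.5% and 53.5% of all genes. On the log2(RPKM + 1) scale 2 were at least 2-fold lower under si-RBCK1 #1 and 1 under si-RBCK1 #2, beside 3.27% and 2.27% of all genes. *RBCK1*, the siRNA target, was lower with both, beside 1.41% of all genes. Its fall was the aim of the knockdown, and it was the only gene counted under si-RBCK1 #2. It also enters the shares and medians of this list, so nothing is read from these counts. *PELI2*, named after its values were seen, was past the limit only under si-RBCK1 #1, at 2.27, 0.482 and 0.700 RPKM. By scaled reads *PELI2* stood at 21.2% and 30.9% of si-Control. *TAB2*, which binds ubiquitin chains and activates the kinase TAK1, was at 43.0, 22.4 and 21.4 RPKM, or 52.1% and 49.7% of si-Control by scaled reads. *UBE2N*, a conjugating enzyme for ubiquitin chains, was at 34.6, 43.3 and 37.8 RPKM, *TOLLIP*, a Toll-interacting protein, at 23.3, 18.7 and 20.9 RPKM, and *SHARPIN*, another LUBAC subunit, at 19.8, 18.1 and 17.0 RPKM.

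Of 18 genes of the inflammasomes and of the proteases that process IL-1α, IL-1β and IL-18, 13 passed the filter. On the log2(RPKM + 1) scale none was at least 2-fold changed with either siRNA, beside 6.18% and 4.76% of all genes. For a list of this size that count is near the background. *CARD16*, named after its values were seen, was at 5.82, 2.71 and 5.88 RPKM. By scaled reads it stood at 46.5% of si-Control under si-RBCK1 #1. The list's median log2 ratio was -0.16 under si-RBCK1 #1 and 0.01 under si-RBCK1 #2, and the latter changed sign under other settings. The IL-1α precursor is cut by calpains, which pair a catalytic subunit with a small regulatory one. Of the catalytic subunits, *CAPN2* was at 101, 135 and 134 RPKM, *CAPN1* at 49.3, 57.0 and 60.7 RPKM, and *CAPNS1*, the small subunit, at 87.8, 99.5 and 109 RPKM. *CAST*, the calpain inhibitor, was at 65.1, 54.1 and 53.3 RPKM. *CASP1*, the protease for IL-1β and IL-18, named for its role, was at 9.06, 6.52 and 7.87 RPKM.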

How the data were processed

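RNA of 3 Caki-1 libraries (si-Control, si-RBCK1 #1, si-RBCK1 #2), 1 per condition, was sequenced, per the labels after ribosomal RNA removal with a directional kit on an Illumina instrument. The labels and the study's methods name different sequencing providers. The RPKM values were made and deposited by the authors; their processing notes name FastQC, Trimmomatic, TopHat2, HTSeq and the hg19 build. Parameters and strand setting of the counting are not given in the sources used here. The table's further columns, which hold the authors' own fold changes, p-values and q-values, were not used, and 1 entry that is not a number was left out.

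Ratios to si-Control were taken as log2(RPKM + 1) differences, over genes averaging 1 RPKM or more, with a 2-fold limit. Understated changes at low levels follow from the pseudocount of 1. Whole reads were recovered from the RPKM steps (tolerance 0.001 read, lengths up to 50000 nt, library totals from RNAs of at most 200 nt) for 12388 of 12403 genes (99.9%), taking the smallest whole numbers. They gave exact 95% Clopper-Pearson intervals of ratios and exact Poisson intervals of levels, which cover counting error only. With 1 library per condition no test was run, no p-value is given, and the spread between cultures cannot be known.

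The members and lists were chosen with earlier results of these data known. The genes named were the 10 members, *RBCK1*, list genes at least 2-fold changed the same way with both siRNAs and up to 4 further list genes by mean RPKM, the 3 nearest protein-coding genes to each of 2 members, and the neighbors of the gene clusters. Beyond this rule, cell type markers and a few genes of the lists were named for their roles or after their values were seen. The lists came from general knowledge. Seed matches used GENCODE 29 transcripts, and promoters came from RefSeq (GRCh38.p14). For 9 of 10 members a promoter window was found. The siRNA sequences came from the study's supplementary material. Software versions were scipy 1.17.1, pandas 2.3.3, matplotlib 3.10.9 and numpy 2.4.6 on Python 3.11.15, and the steps were tested on simulated data. Alternatives were other pseudocounts, filters, fold limits, scalings, protein-coding genes only, the mean in place of the median, and, chosen after seeing the data, whole reads without a pseudocount and a list without *IL6*.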

Additional observations from a re-analysis of the deposited data

Results flagged for a closer look

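For 3 of the IL-1 genes the 2 siRNAs against *RBCK1* gave log2(RPKM + 1) ratios to si-Control of opposite sign. *IRAK1* was at 0.79 under si-RBCK1 #1 and at -0.50 under si-RBCK1 #2. *MYD88* was at -0.011 and 0.53, and *IL1R1* at 0.30 and -0.0069, so that for *MYD88* and *IL1R1*, unlike *IRAK1*, 1 of the 2 ratios lay near 0. With 1 library per siRNA the difference was not tested against any spread between cultures.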

How the results depend on the processing

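No paired analysis was possible because there was 1 library for each treatment, and no replicate could be left out. The sign of the log2 ratio was kept for all 8 IL-1 genes that passed the filter, under every alternative run. Pseudocounts, whole reads, filters and fold limits cannot change this sign, so only the scalings to equal medians and equal totals could. These multiplied the knockdown libraries by 0.962 to 0.994, so a negative ratio could not have turned positive. Across all alternatives *IL1A* ranged from -1.58 to -1.35 under si-RBCK1 #1 and from -2.18 to -1.80 under si-RBCK1 #2. *IL1RAP* ranged from -1.12 to -0.49 with both. The number of IL-1 genes past the fold limit, 1 with each siRNA and with both, was 2 in all 3 counts with a pseudocount of 0.1 RPKM and, as an alternative chosen after seeing the data, with whole reads. At a 1.5-fold limit it was 3 under si-RBCK1 #1, 2 under si-RBCK1 #2 and 2 with both, and at a 4-fold limit 0 under si-RBCK1 #1 and 0 with both. Over all genes, the counts under si-RBCK1 #1, under si-RBCK1 #2 and the same way with both were 766, 591 and 356. They became 1346, 1085 and 673 with a pseudocount of 0.1 RPKM, 219, 198 and 125 with 5 RPKM, 2934, 2556 and 1700 at 1.5-fold, and 47, 31 and 11 at 4-fold. Raising the filter to 5 RPKM gave 455 and 391 with the single siRNAs, on fewer genes. *RBCK1* was at -1.73 under si-RBCK1 #1 with the pseudocount of 0.1 RPKM, and at -1.36 and -1.15 under the 2 siRNAs with 5 RPKM. The median of the IL-1-raised list under si-RBCK1 #1 was -0.36 with equal totals, -0.35 as a mean and -0.24 with no filter. With si-RBCK1 #2 it was -0.76 as a mean, -0.61 with no filter and -0.62 with a pseudocount of 5 RPKM. The inflammasome list under si-RBCK1 #1 had a median of 0 with no filter, and the mean of the signal transducers under si-RBCK1 #2 was -0.11. Fold limits and filters change counts by construction, and the cause of the other shifts was not tested. Of the recomputed values 25 counts, 8 list medians and 15 single-gene ratios moved, and 29, 60 and 73 were little changed. Depth limits *IL1RN* and *IL33*, at 4 reads or fewer.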

Other observations

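Toll-like receptors share MYD88 with the IL-1 receptor. Of 14 of their genes and adaptors 7 passed the filter. On the log2(RPKM + 1) scale none was at least 2-fold changed with either siRNA (6.18% and 4.76% of all genes were). By scaled reads *TLR3* stood at 48.8% of si-Control under si-RBCK1 #1. The list's median log2(RPKM + 1) ratio was 0.08 under si-RBCK1 #1 and 0.18 under si-RBCK1 #2. *TICAM1*, the adaptor of TLR3, was at 7.76, 8.23 and 8.68 RPKM in si-Control, si-RBCK1 #1 and si-RBCK1 #2, *TLR6* at 3.57, 5.87 and 4.64 RPKM, *TIRAP*, which bridges to MYD88, at 3.03, 4.64 and 3.60 RPKM, and *TLR3*, the sensor of double-stranded RNA, at 5.01, 2.45 and 3.12 RPKM.

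From the list of transcripts raised by IL-1, 3 genes that encode feedback inhibitors are given as single values, chosen after these were seen and with nothing read from them as a group. *NFKBIA*, which encodes the inhibitor IκBα, was at 47.4, 78.6 and 56.9 RPKM in si-Control, si-RBCK1 #1 and si-RBCK1 #2. *TNFAIP3*, which encodes the deubiquitinase A20, was at 3.73, 6.55 and 3.72 RPKM. *ZC3H12A*, which encodes an RNase that degrades cytokine transcripts, was at 22.3, 42.8 and 35.0 RPKM. None of these was at least 2-fold changed on the log2(RPKM + 1) scale.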
